A study of Mus musculus with 12 samples.

Results

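The Akr1c genes of the mouse encode aldo-keto reductases of 1 subfamily, and 8 of them were examined in the liver of db/db mice given molecular hydrogen: Akr1c6, Akr1c12, Akr1c13, Akr1c14, Akr1c18, Akr1c19, Akr1c20 and Akr1c21. The members were taken by name, as all array probes whose RefSeq record belongs to 1 of these genes. The family was chosen by the log2 ratios of Akr1c18, which led the rises after 1 and 3 days of MgH2, so the values at those times are a description without a test. Among the 20283 gene symbols with a probe, 7 were members, with 1 probe and 1 spot each among 39429 probes in all. Akr1c20 matched no probe, and with a single probe per gene it could not be checked whether probes of a gene agree.

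Aldo-keto reductases are soluble enzymes that use NADPH or NADH to reduce aldehydes and ketones to alcohols, or run the reaction backwards. The Akr1c enzymes act mainly on steroids and prostaglandins, and the liver uses them to inactivate steroid hormones and to clear reactive carbonyl compounds and foreign ketones. Akr1c18 is the 20-alpha-hydroxysteroid dehydrogenase that converts progesterone into an inactive form, best known from the ovary. Akr1c14 is a 3-alpha-hydroxysteroid dehydrogenase, Akr1c6 is the type 5 17-beta-hydroxysteroid dehydrogenase of the liver, and Akr1c21 is a 17-alpha-hydroxysteroid dehydrogenase best known from the kidney. Akr1c12, Akr1c13 and Akr1c19 use NAD+ and oxidize hydroxysteroids and other alcohols.

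All mice were male db/db mice of 8 weeks, which lack a functional leptin receptor and become obese and diabetic. MgH2, which releases H2 in the stomach, was given by gavage for 1, 3 or 7 days, with Mg(OH)2 for the controls, and H2-water was drunk for 14 days, with degassed water for the controls. The labels give 0.9 mg/kg of MgH2, which a legend of the study also states while its methods name higher doses, and 0.8 mM H2 in the water. Each of the 12 two-color arrays, 3 per group, carried liver RNA of 3 treated mice in Cy5 beside that of 3 controls in Cy3, each mixed into 1 pool, so an array reports no single animal and the number of pools limits the precision. Treated pools always carried Cy5, and a bias of a probe between the dyes cannot be told apart from the treatment. In bulk liver, fewer cells of a type and less RNA per cell cannot be told apart.

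Between 51.8% and 56.5% of the spots were above background in both channels, and none was saturated. The 8 hepatocyte markers examined were above background on all arrays, among them albumin (Alb). Of the 6 adrenal cortex markers, the steroidogenic enzymes Cyp11a1 and Cyp11b1 and the corticotropin receptor Mc2r were below background on all arrays, while Cyp21a1 and Nr5a1 were above it on all 12. Star was above background on all gavage arrays and below it on all water arrays. Of the 6 kidney markers, Umod, Slc12a1, Kap and Nphs1 were below background on all arrays and Aqp2 was above it on all 12. Slc34a1 was above background on all water arrays and on some of the gavage arrays. The control pools of the gavage arrays raised a limit that touches the 1-, 3- and 7-day values. Across 18411 probes, control pools with the same number on different days differed by an SD of 0.137 to 0.211 on the log2 scale, less than control pools of the same day (0.223 to 0.295). The treated pools showed no such gap, with 0.241 to 0.347 and 0.199 to 0.285. The ratios of same-numbered gavage arrays also deviated together, with correlations across probes from 0.368 to 0.655. The labels name a control for each day, and whether the same control pools served several days was not tested. The gavage comparisons are therefore not read as independent of each other. The fit itself took all 12 arrays as independent, also for the spread behind the tests at 14 days. A replicate block was run only as an alternative.

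The members lie side by side on chromosome 13, in the order Akr1c14, Akr1c18, Akr1c13, Akr1c19, Akr1c12, Akr1c6, Akr1c20 and Akr1c21 in RefSeq (GRCm38.p6), with Akr1e1 of another subfamily after them. The 250 bases before the transcript start of the members that moved (Akr1c18, Akr1c19, Akr1c14) and of the pair with near-identical sequences there (Akr1c12, Akr1c13) are given from RefSeq, 5′ to 3′ on the gene's own strand. They lie at chr13:4150647-4150896 (minus strand) for Akr1c18, chr13:4233490-4233739 (plus) for Akr1c19, chr13:4059341-4059590 (plus) for Akr1c14, chr13:4279400-4279649 (minus) for Akr1c12 and chr13:4190937-4191186 (plus) for Akr1c13. Capitals mark the motifs named after them.
Akr1c18: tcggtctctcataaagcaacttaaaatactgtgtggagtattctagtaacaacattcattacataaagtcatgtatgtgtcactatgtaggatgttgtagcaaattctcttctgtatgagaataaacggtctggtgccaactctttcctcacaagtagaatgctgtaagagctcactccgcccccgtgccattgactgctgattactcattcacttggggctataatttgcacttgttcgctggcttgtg
Akr1c19: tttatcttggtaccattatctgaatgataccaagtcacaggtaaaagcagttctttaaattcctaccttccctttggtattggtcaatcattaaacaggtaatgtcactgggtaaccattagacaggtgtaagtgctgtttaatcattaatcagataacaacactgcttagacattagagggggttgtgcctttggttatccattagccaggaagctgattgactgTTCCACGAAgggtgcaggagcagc
Akr1c14: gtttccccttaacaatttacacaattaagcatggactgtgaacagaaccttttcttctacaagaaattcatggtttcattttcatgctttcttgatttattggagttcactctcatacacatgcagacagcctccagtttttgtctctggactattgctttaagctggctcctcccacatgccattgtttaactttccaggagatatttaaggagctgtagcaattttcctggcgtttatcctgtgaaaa
Akr1c12: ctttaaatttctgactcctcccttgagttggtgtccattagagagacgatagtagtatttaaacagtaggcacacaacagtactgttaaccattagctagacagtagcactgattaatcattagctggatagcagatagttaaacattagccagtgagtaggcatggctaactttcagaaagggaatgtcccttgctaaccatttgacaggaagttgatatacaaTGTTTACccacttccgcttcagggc
Akr1c13: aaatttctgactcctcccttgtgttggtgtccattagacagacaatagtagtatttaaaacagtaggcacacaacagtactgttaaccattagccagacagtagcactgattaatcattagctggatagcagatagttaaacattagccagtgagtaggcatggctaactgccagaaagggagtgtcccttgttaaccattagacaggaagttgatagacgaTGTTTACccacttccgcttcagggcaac

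Over these windows Akr1c12 and Akr1c13 were 92.5% identical, while the other pairs among the 7 members with an entry ranged from 43.7% to 59.0%. The lowest value was that of Akr1c18 with Akr1c19, the 2 members called higher at 14 days, and of Akr1c18 with Akr1c21. The letters GTAAACA, a site bound by FoxO factors, were searched on both strands and stood in 3 of the 7 windows (Akr1c12, Akr1c13 and Akr1c21), against 3.17% of 32851 RefSeq promoters. The letters TTCNNNGAA, bound by STAT factors, stood in the window of Akr1c19, against 7.02% of promoters. TATAAA stood in that of Akr1c6, against 12.4%. Neither AGGTCA, a half-site of nuclear receptors (14.0% of promoters), nor TGACNNNGC, the core of the antioxidant response element (10.2%), stood in any of the 7. None of these letters occurred in the windows of Akr1c18 or Akr1c14, and no binding was measured here.

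Akr1c18 was the member with the largest ratios of treated over control, and it was higher in the treated pool on 12 of 12 arrays. The 1- and 3-day arrays among them chose the family, and the 7-day controls may be the same pools. Only the water arrays are free of that choice. Its log2 ratios were 1.22, 1.38 and 1.62 after 1 day of MgH2, a mean of 1.40 ± 0.20 (SD, n = 3) or 2.64-fold. After 3 days they were 1.39, 1.31 and 1.30, a mean of 1.33 ± 0.05 or 2.51-fold. After 7 days they were 0.66, 1.33 and 1.12, a mean of 1.04 ± 0.34 or 2.05-fold. The arrays of 1 and 3 days overlapped, whereas arrays 1 and 3 of 7 days were below all of them and array 2 of 7 days was within their range. No p is given for these values, because the first 2 chose the family and the controls of the third may be the same pools.

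After 14 days of H2-water, a comparison that did not choose the family, Akr1c18 was also higher in the treated pools. The log2 ratios were 0.45, 0.34 and 0.57, all below the lowest array of the gavage groups. The mean was 0.45 ± 0.12 (SD, n = 3), or 1.37-fold, and passed the test (limma, SE 0.112, adjusted p = 0.036, 95% interval 0.20 to 0.70). With 2 of the 3 arrays it no longer passed, with adjusted p = 0.152, 0.0991 and 0.204 without arrays 1, 2 and 3, although the mean stayed between 0.40 and 0.51. The difference in the log2 ratio between 14 days of H2-water and 7 days of MgH2 was −0.58 (SE 0.158, adjusted p = 0.0624), which did not pass. It passed without array 1 of 7 days (−0.77, adjusted p = 0.0355), with the replicate number as a block (adjusted p = 0.048), with slide as a random block (0.0397) and without the filter on dim probes (0.039). The 7-day part of this difference may share control pools with the arrays that chose the family. Neither the difference nor its passes are therefore read as a result. Agent, route, mice and time all differ between these groups and cannot be told apart.

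**Figure D1:**
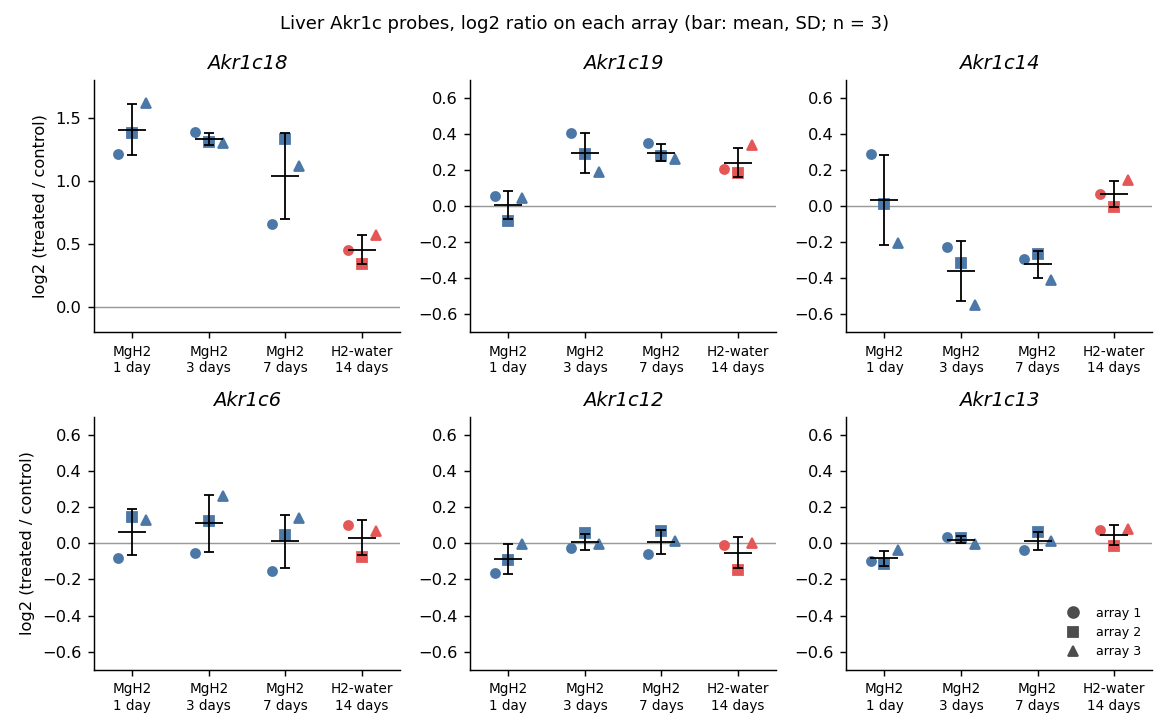
Log2 ratio of treated over control (y axis) on each of the 3 arrays of each group (x axis) for the 6 Akr1c probes above background; symbols stand for the array number, and the bar and whiskers are the mean and SD. The Akr1c18 panel has its own scale: all its 12 points lie above 0, from 0.34 to 1.62, whereas Akr1c6, Akr1c12 and Akr1c13 scatter around 0.

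The signals behind these ratios, after the background subtraction and dye normalization of the scanner software, were low. In the control pools of the 9 gavage arrays, the processed Akr1c18 signal ran from 16.3 to 34.6 (median 22.8), and in the MgH2 pools from 49.9 to 76.8 (median 56.4). The 2 ranges did not overlap. In the water experiment the control pools gave 101, 123 and 84.4 and the H2-water pools 138, 156 and 125, so here the ranges did not overlap either, and both channels were brighter. The low ratio of array 1 at 7 days went with its control signal, the highest of the gavage arrays at 34.6, and not with its treated signal of 54.7, which lay within the range of the other arrays.

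All of these Akr1c18 signals were marked well above background, but by a small margin in the control channel. On the gavage arrays the median of its spot was 32 to 40 units in Cy3, over a local background of 18.5 to 23 units. On the water arrays it was 81 to 95.5 over 32 to 33 units. The size of the gavage ratios changed with the background correction and normalization. With normexp correction, an offset of 50, which draws dim ratios towards 0, and loess, the log2 means were 0.48 at 1 day, 0.41 at 3 days, 0.30 at 7 days and 0.36 at 14 days. With an offset of 0 they were 1.14, 0.91, 0.73 and 0.54. Treated stayed above control in all of these means. With the offset of 50, the 14-day mean lay between those of 3 and 7 days, and the difference between 14 and 7 days was 0.06 (adjusted p = 0.627).

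**Figure D2:**
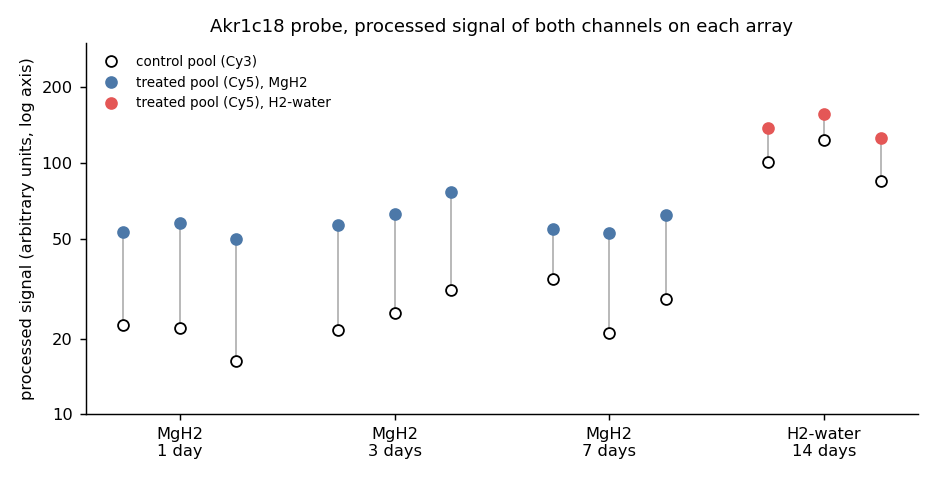
Processed signal of the Akr1c18 probe (log axis, arbitrary units) on each array, with the control pool as an open circle and the treated pool as a filled circle joined by a line. The treated pool lies above its control on all 12 arrays, and both channels are brighter on the 3 water arrays.

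Akr1c19 was called higher in the treated pools at 7 and 14 days. After 1 day of MgH2 its log2 ratios were 0.06, −0.08 and 0.04, a mean of 0.01 ± 0.08 (SD, n = 3), so at that time it stood near 0 while Akr1c18 was at its highest. After 3 days they were 0.41, 0.29 and 0.19, a mean of 0.29 ± 0.11. After 7 days they were 0.35, 0.28 and 0.26, a mean of 0.30 ± 0.05 or 1.23-fold, and higher on 3 of 3 arrays. The 3- and 7-day arrays overlapped with each other and not with those of 1 day. The 7-day value passed the test (limma, SE 0.0504, adjusted p = 0.00262).

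After 14 days of H2-water, the log2 ratios of Akr1c19 were 0.21, 0.18 and 0.34. The mean of 0.24 ± 0.08, or 1.18-fold, passed as well (limma, SE 0.0504, adjusted p = 0.0192). Leaving out arrays 1, 2 and 3 ended this call, with adjusted p = 0.0834, 0.0635 and 0.145. The difference between 14 and 7 days was −0.06, with a 95% interval of −0.21 to 0.10 (adjusted p = 0.693). Unlike Akr1c18, this probe was far above background, with control signals from 6943 to 8678 on the gavage arrays and from 6658 to 7526 on the water arrays, and normexp with an offset of 50 left its means at 0.27 and 0.22.

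Akr1c14, the neighbour of Akr1c18 on the chromosome, was lower in the MgH2 pools at 3 and 7 days. Its log2 ratios after 1 day were 0.29, 0.01 and −0.21, a spread that straddled 0 (mean 0.03 ± 0.25, SD, n = 3). After 3 days they were −0.22, −0.31 and −0.55, a mean of −0.36 ± 0.17. After 7 days they were −0.29, −0.27 and −0.41, a mean of −0.32 ± 0.08, so it was lower on 3 of 3 arrays at both times. The 7-day value passed (limma, SE 0.0869, adjusted p = 0.021). It did not pass without array 1, 2 or 3, with adjusted p = 0.0704, 0.0571 and 0.12, at means from −0.35 to −0.28.

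In the water experiment, the log2 ratios of Akr1c14 were 0.07, −0.003 and 0.14, none of them as low as the 7-day arrays. The mean was 0.07 ± 0.07 (adjusted p = 0.7), with a 95% interval of −0.13 to 0.26. The difference between 14 and 7 days was 0.39 (SE 0.123, adjusted p = 0.0899), which did not pass. It passed with each array centred on its median (0.57, adjusted p = 0.0166) and with normexp and an offset of 50 (0.43, adjusted p = 0.0348). A fall in the gavage group alone is therefore not shown.

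Akr1c6, Akr1c12 and Akr1c13 were near 0 as deposited and were not called in any group. The log2 ratios of Akr1c6 ran from −0.15 to 0.26 over the 12 arrays, with group means between 0.01 and 0.11. With normexp, an offset of 50 and loess, the means of Akr1c6 were higher, at 0.21, 0.28, 0.16 and 0.19 for 1, 3, 7 and 14 days, and it was then called at 3 days and not at 7 or 14 days (adjusted p = 0.157 and 0.146). Those of Akr1c12 ran from −0.17 to 0.07, with group means between −0.09 and 0.01. Those of Akr1c13 ran from −0.11 to 0.08, with group means between −0.08 and 0.05. The 95% intervals at 7 and 14 days bound what could have been missed. For Akr1c6 they were −0.16 to 0.18 and −0.13 to 0.20. For Akr1c12 they were −0.09 to 0.11 and −0.15 to 0.05, and for Akr1c13 −0.06 to 0.09 and −0.03 to 0.12. Akr1c12 and Akr1c13 were both below 0 on 3 of 3 arrays after 1 day, by 0.09 and 0.08 on average, although Akr1c12 on array 3 was at −0.0008. Akr1c21 was not well above background on any array in either channel, with signals of 2.11 to 8.09, and no ratio is given for it.

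A probe was called where its adjusted p was under 0.05. Of the 6 members tested in each group, 1 was called after 1 day, where 8.62% of all tested probes were called, and 3 after 3 days, where 22.2% were. These are the comparisons that chose the family, and nothing is read from their counts. After 7 days 3 were called, against 28.5% of 19470 probes, and after 14 days 2 were called, against 8.46% of 20429 probes. None was called for the difference between 14 and 7 days by limma, against 5.46% of 18689 probes, with Akr1c14 and Akr1c18 at an unadjusted p under 0.05 (0.00985 and 0.00435). The median log2 ratio over all tested probes was 0.01 at 7 days and −0.005 at 14 days. Akr1c18 is 1 of the 3 at 7 days. Because of the controls, neither its call nor its difference between 14 and 7 days is read as a result. The others went both ways, with Akr1c19 higher, where 14.8% of all tested probes were called higher, and Akr1c14 lower, where 13.8% were. The 2 called at 14 days were both higher, where 4.79% were.

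The levels of the members also differed between the 2 experiments, in the control pools that received no H2. Levels are given as log2 signal minus the 75th percentile of the channel, and only within a probe. Across 18411 probes, gavage and water control pools differed by an SD of 0.855 to 0.932 on the log2 scale. Between water control pools it was 0.217 to 0.249. The steps of the members stand beside that wide shift of all probes. The Akr1c18 level was −1.89 ± 0.22 (SD, n = 3) in the water controls, above −3.65 ± 0.30 at 7 days, −3.74 ± 0.20 at 3 days and −4.05 ± 0.29 at 1 day. The 3 gavage values overlapped array by array, whereas the water controls were above all 9 of them, by 1.93 or 3.80-fold on average. The treated pools had the same highest group, at −1.44 ± 0.12 for H2-water and between −2.64 and −2.41 for the MgH2 groups. The level of Akr1c18 in the water controls was thus above that in every MgH2 pool.

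Akr1c12 showed a step of the same direction. Its control level was 4.47 ± 0.01 in the water experiment and between 3.06 and 3.12 in the gavage groups, which overlapped, a difference of 1.39 or 2.61-fold. The control level of Akr1c21 was also higher in the water experiment, by 0.96, although that probe was not well above background on any array. A probe at background thus stepped up too. The level of Akr1c14 was 3.46 ± 0.04 in the water controls and between 3.07 and 3.08 in the gavage controls, higher by 0.38. Akr1c6, Akr1c13 and Akr1c19 were lower in the water controls, by 0.18, 0.29 and 0.21. These steps and that of Akr1c14 were smaller than the SD over all probes between the experiments. The control agent, its route, the mice, the slide and the version of the scanner software all changed with the experiment and cannot be told apart, so these are differences between sets of arrays.

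**Figure D3:**
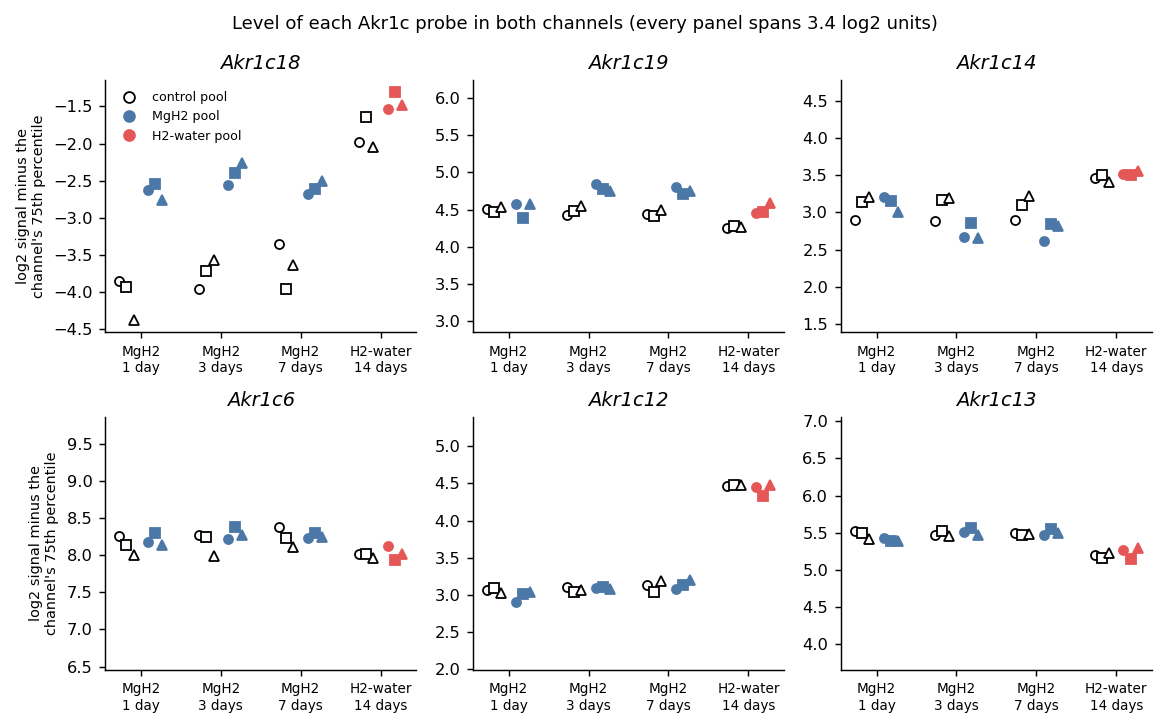
Level of 6 Akr1c probes (log2 processed signal minus the 75th percentile of the channel) in the control pool (open) and treated pool (filled) of each array, by group, with the symbol giving the array number; every panel spans the same number of log2 units. Akr1c18 and Akr1c12 stand higher in both channels of the 3 water arrays, while the treated pools of Akr1c18 lie above their controls in every group.

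The genes whose log2 ratio most resembled that of Akr1c18 over the 12 arrays, among 11569 genes, were Prdx5 (r = 0.947), Hcn2 (0.93), Foxl2 (0.926), Scaf1 (0.923) and C9 (0.921). The points share control pools and fall into the gavage and water experiments, so the correlations are a description. Prdx5, a peroxiredoxin, averaged 0.04, 0.06, 0.01 and −0.07 at 1, 3, 7 and 14 days. Hcn2, a cation channel, averaged 0.24, 0.18, 0.11 and −0.15. C9, a complement component made by hepatocytes, averaged 0.22, 0.01, −0.12 and −0.50. None of these 3 was higher in the H2-water pools on average, where Akr1c18 was.

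Of 9 other listed aldo-keto reductases 8 were tested, with 2 higher and 2 lower at 7 days, where 14.8% of all tested probes were called higher and 13.8% lower. At 14 days 0 were higher and 1 was lower, where 8.46% of all tested probes were called, at medians of −0.07 and 0.004. Akr1b7, an aldose reductase-like enzyme that reduces aldehydes from lipids, rose at 7 days, with log2 ratios of 0.71, 1.17 and 0.51 (mean 0.80, SE 0.17, limma adjusted p = 0.00766). At 14 days its ratios were 0.09, −0.51 and −0.18, and the difference between 14 and 7 days passed (−0.995, adjusted p = 0.0449). Akr1b10 fell at 7 days, with −0.45, −0.53 and −0.50 (mean −0.49, adjusted p = 0.00176). At 14 days it was at 0.01, 0.11 and −0.004, and its difference passed as well (0.53, adjusted p = 0.0302). For this difference, here and in the lists below, agent, route, mice and time cannot be told apart. Over all probes 1020 passed it, against 3 with the arrays of those groups alone and 34 to 551 without 1 array. Akr1d1, which reduces the double bond of steroid hormones and bile acid precursors in the liver, rose by 0.32 at 7 days (adjusted p = 0.0272). Akr1b8 fell by 0.22 at 7 days (adjusted p = 0.0289), and Akr7a5 fell by 0.12 at 14 days (adjusted p = 0.0438).

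Of the 20 other oxidoreductases of steroid hormones, 16 were tested at 7 days, with 1 higher and 7 lower (14.8% and 13.8% of all tested probes), and 17 at 14 days, with 1 higher and 2 lower (8.46% of all tested probes either way). The medians were −0.05 and 0.01. Hsd17b2, which oxidizes estradiol and testosterone to weaker hormones, fell at 7 days with log2 ratios of −0.96, −0.39 and −0.55 (mean −0.63, SE 0.111, limma adjusted p = 0.00304). Srd5a2, a steroid 5-alpha-reductase, fell at both times, by 0.58 at 7 days (adjusted p = 0.0101) and by 0.49 at 14 days (adjusted p = 0.0494). Hsd17b12, which also elongates fatty acids, fell at 7 days with −0.40, −0.53 and −0.61 (mean −0.51, adjusted p = 0.000289), and differed between 14 and 7 days by 0.39 (adjusted p = 0.0289). Srd5a1, the 5-alpha-reductase best known from liver and skin, fell by 0.48 at 7 days (adjusted p = 0.0183). The remaining 5-alpha-reductase of the list, Srd5a3, rose by 0.13 at 7 days (adjusted p = 0.0204), and was named after its value was seen.

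Among 14 genes of prostaglandin synthesis and reduction, 12 were tested, with 1 higher and 4 lower at 7 days (14.8% and 13.8% of all tested probes) and 0 higher and 1 lower at 14 days (8.46% either way), at medians of −0.13 and −0.03. Cbr1, a carbonyl reductase of prostaglandins and other ketones, rose at 7 days with log2 ratios of 0.45, 0.43 and 0.45 (mean 0.44, SE 0.0661, limma adjusted p = 0.00146). It differed between 14 and 7 days by −0.47 (adjusted p = 0.0292). Ptgs1, the constitutive cyclooxygenase, fell by 0.29 at 7 days (adjusted p = 0.0122). Hpgd, which inactivates prostaglandins, fell by 0.27 (adjusted p = 0.0226). Ptges3, a cochaperone also described as a prostaglandin E synthase, fell by 0.21 at 7 days and by 0.28 at 14 days (adjusted p = 0.00538 and 0.0043).

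Of 13 targets of Nrf2, the transcription factor of the oxidative stress response, 12 were tested, with 4 higher and 2 lower at 7 days (14.8% and 13.8% of all tested probes). At 14 days 0 were called by limma, where 8.46% of all tested probes were, with 2 at an unadjusted p under 0.05. The test of the study's methods, run on the log2 signals of both channels, called 0 of all 20429 probes after adjustment. It therefore cannot add anything about this list. Hmox1, heme oxygenase 1, rose at 7 days with log2 ratios of 0.81, 0.46 and 0.49 (mean 0.59, SE 0.0893, limma adjusted p = 0.0016), and its difference between 14 and 7 days was −0.52 (adjusted p = 0.0454). Gsta1, a glutathione transferase, rose by 0.39 (adjusted p = 0.0379). Malic enzyme Me1 and glucose-6-phosphate dehydrogenase G6pdx, which supply NADPH, fell by 0.53 and 0.34 (adjusted p = 0.0158 and 0.0182). The median of the list was 0.07 at 7 days and 0.04 at 14 days.

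**Figure D4:**
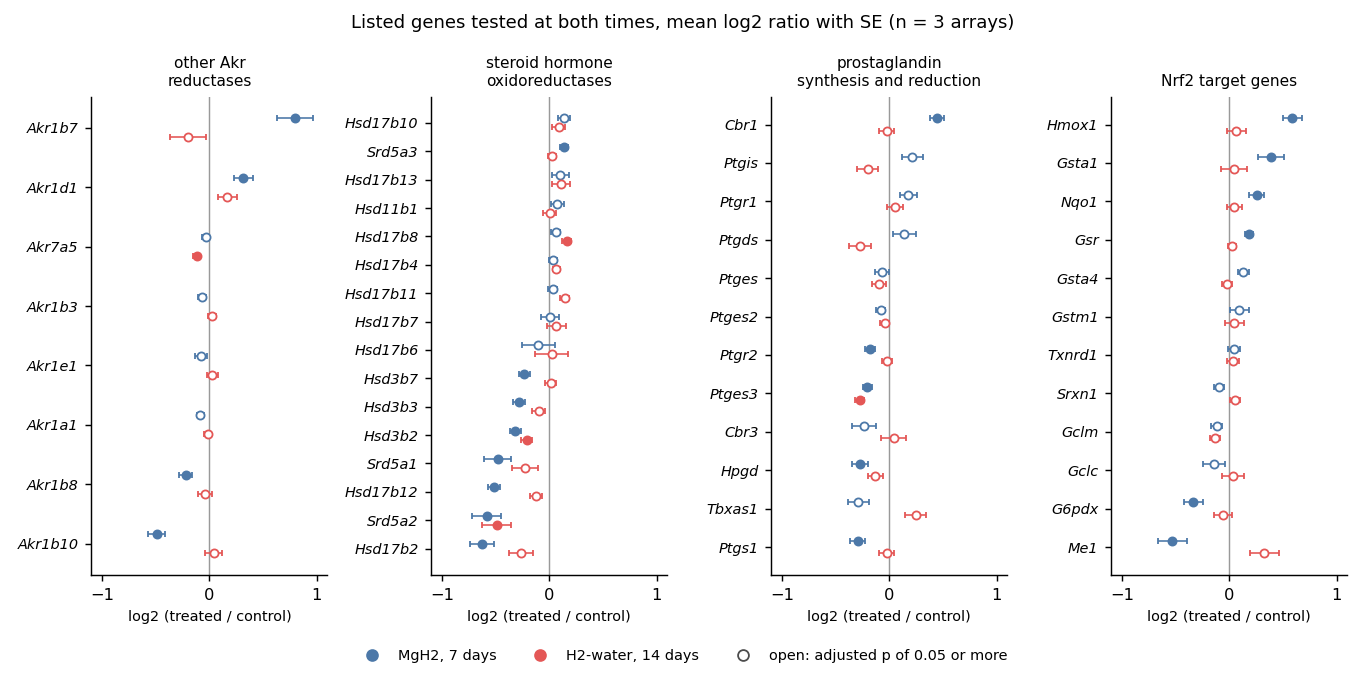
Mean log2 ratio over 3 arrays (x axis) for the listed genes tested at both 7 days of MgH2 and 14 days of H2-water, in 4 panels for the lists. Whiskers are the SE from the limma fit of all 12 arrays and do not show the spread of a group alone. Filled points passed the test and open points did not. At 7 days Akr1b7, Cbr1 and Hmox1 stand at the top of their lists and Akr1b10, Hsd17b2 and Me1 at or near the bottom, and fewer points are filled at 14 days.

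Markers of other cells moved at 7 days beside the calls for Akr1c14, Akr1c18 and Akr1c19. Among all tested probes, 14.8% were called higher and 13.8% lower at 7 days, and 8.46% either way at 14 days. Of 7 Kupffer cell and leukocyte markers, 6 were tested and 3 fell at 7 days, Ptprc by 0.70, Cd5l by 0.47 and Clec4f by 0.45, at a median of −0.39. Over the gavage arrays of 1, 3 and 7 days together, the summed signal of the 7 markers ran from 9130 to 11900 in the control pools. In the treated pools it ran from 6990 to 9260, and these ranges are not of 7 days alone. At 14 days 1 of the 6, Cd3e, fell, at a median of 0.02. Of 4 erythroid markers 3 were tested, and Alas2 fell at both times, by 0.70 and by 0.41. Of 8 hepatocyte markers 4 rose at 7 days, Alb by 0.41 among them, and Pck1 fell at 14 days. Of the adrenal, kidney and pancreas markers that could be tested, at most 3 per list, 0 were called by limma at 7 or 14 days, with at most 1 per list and time at an unadjusted p under 0.05. The nearest to a call was Star of the adrenal list, at 0.49 at 7 days (limma adjusted p = 0.0501). The part of these markers in the ratios of the Akr1c genes was not tested.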

How the data were processed

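RNA of livers was pooled, labeled and hybridized to two-color Agilent mouse arrays, and the spots were quantified with Feature Extraction (version 10.7.3.1 for the water arrays and 10.10.1.1 for the gavage arrays, per the file headers). The intensity values deposited by the authors are processed signals, background-subtracted and dye-normalized within each array and not scaled between arrays, and the median intensities of spots and local background served for normexp. The deposited table of log2 ratios equals that of the processed signals, with a largest difference of 1.4e-06. The log10 ratios and the p-values of single arrays that the authors' files also hold were not used as results.

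Control spots and spots marked as non-uniform or as population outliers were left out, 160 to 244 per array. The log2 ratio of Cy5 over Cy3 was taken as deposited, spots of a probe were averaged, and a probe was tested where both channels were above background on all 3 arrays of a group. Of the 39429 probes, 26761 (67.9%) were named through their RefSeq record in a table of GRCm38.p6, and the listed Hsd17b8 was matched through its current symbol. One fit in limma 3.58.1 (R 4.3.3) held all 12 arrays and tested each group mean against 0, two-sided, with Benjamini-Hochberg adjustment over all probes tested, at a threshold of 0.05. On simulated data with 200 probes changed 1.5-fold, 78% were recovered at 7 days and 81.5% at 14 days, among 18411 probes. The simulated noise was independent between arrays, unlike the gavage ratios. The changes of Akr1c19, of Akr1c14 and of Akr1c18 at 14 days were smaller than 1.5-fold, and the rates do not describe changes that small. Pools are samples by the labels, and the p-values measure the spread between them. Each member has 1 probe. Up to 4 called genes per list are named, by size of change, and the 5 genes most like Akr1c18. Promoters were read from RefSeq tables with Biopython 1.88.

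The members, lists and tests were chosen with earlier results of these data known. Alternatives were other scalings, normexp with loess, no filter on dim probes, the table of log ratios, the group's arrays alone, a replicate block, slide as a random block, the methods' test on the channel signals, and leaving out each array. Normexp with an offset of 0 was added after the data had been seen. Slide was read from the file headers, and the water arrays were all on 1 slide of their own.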

Additional observations from a re-analysis of the deposited data

How the results depend on the processing

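No member reversed its direction with a call under any alternative run. Over the member values, 324 kept their side of the threshold or, without a test, moved by under 1 SD, 16 lost the threshold, 6 gained it and 8 moved by over 1 SD without a test. Among them 34 turned sign, at values not called as reported: 9 of Akr1c12, 7 each of Akr1c6, Akr1c13 and Akr1c19, 3 of Akr1c14 and 1 of Akr1c18 (the difference between 14 and 7 days with normexp and an offset of 50). Members called at 14 days (2 as reported) numbered 1 without the filter on dim probes (Akr1c18 at adjusted p = 0.0517), 1 with the group's arrays alone (Akr1c19 at 0.0723), 0 by the methods' test after adjustment (1390 probes, Akr1c19 among them, at an unadjusted p under 0.05) and 0 without any 1 array. At 7 days (3 as reported) they numbered 0 by the methods' test after adjustment (3664 probes unadjusted) and 2 without any 1 array. At 3 days (3 as reported) they numbered 1 with the group's arrays alone, where only Akr1c18 was called. They numbered 4 with normexp and an offset of 50, where Akr1c6 was added, and 2 to 3 without 1 array. At 1 day they numbered 1 under all alternatives run. For the difference between 14 and 7 days (0 as reported) they numbered 1 with median centring, 1 with normexp and an offset of 50, 1 without the filter, 1 with the replicate block, 1 with slide as a block, and 0 to 1 without 1 array.

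Same-numbered arrays of the gavage days correlated at 0.368 to 0.655, and those of 7 and 14 days at 0.287, 0.233 and 0.0348, which do not all pass the 0.1 set for pairing, and with the replicate block 3 members were called at 7 days, 2 at 14 days and 1 for the difference (Akr1c18, adjusted p = 0.048). Cases where the count of all probes called moved by over 1.5 times were, at 1 day (1696), 626 with median centring, 2718 with the replicate block and 2679 with slide as a block, and at 3 days (4319), 2640 with median centring. At 7 days (5556) they were 8536 without the filter, 2176 with the group's arrays alone and 0 by the methods' test. At 14 days (1728) they were 2596 with normexp and an offset of 50, 2697 with the replicate block, 502 with the group's arrays alone and 0 by the methods' test. For the difference (1020) they were 3650 with median centring, 6633 without the filter, 1929 with the replicate block, 1714 with slide as a block and 3 with the arrays of those groups alone. Without 1 array they ran from 340 to 634, 1815 to 2694, 2876 to 3801, 395 to 533 and 34 to 551 in the same order. Median centring moved the median log2 ratio of the tested probes at 7 days from 0.01 to −0.11. The cause of these shifts was not tested beyond fewer arrays or other probes in the fit. The low signal of Akr1c18 over background limits the size of its ratios.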
